A study of Mus musculus with 6 samples.

Results

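Genes that encode the fibril matrix, the membrane transporters and the receptors of the melanosome, 9 in number, were described across the 6 arrays: Pmel, Mlana and Gpnmb (matrix and membrane proteins), Oca2, Slc45a2, Slc24a5 and Slc7a11 (transporters), and Gpr143 and Mc1r (receptors). The list was drawn up by gene name, with no measured value in its rule, but it was chosen with earlier results of these data known. The platform annotation named 8 of the 9 genes in 12 probe sets, each assigned to 1 gene only, and Slc24a5 was not among them. Where a gene had several probe sets, the one of the highest mean stood for it. The mean over the 6 arrays was at least 5 for 7 of the 8 genes and for 9 of the 12 probe sets, and these 7 genes were among 12098 genes tested in the whole series. Mc1r, below that limit, was described without a test.

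The series compared tissue labelled as retinal pigment epithelium (RPE), a single cell layer that backs the retina, between albino mouse embryos and control embryos with pigment at embryonic day 13.5. There were 3 arrays for each genotype, labelled as separate biological replicates and each made with 100 ng of total RNA from tissue pooled from 3 to 4 littermates. Neither the mutated gene nor a strain is given in the labels. They call the tissue RPE, while the sample descriptions speak of the whole eye region. Values are log2 RMA expression, so a difference of 1 is a doubling, and levels of different probe sets were not set against each other.

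Melanosomes are lysosome-related organelles that make and store melanin. PMEL is cut inside the early organelle and forms sheets of fibrils on which melanin is laid down, with MLANA as a partner protein of the membrane. OCA2 and SLC45A2 act on the ion balance and pH of the organelle, which sets how well tyrosinase works. SLC24A5 exchanges calcium, sodium and potassium, and SLC7A11 brings cystine into the cell. GPR143, the ocular albinism receptor, sits on the melanosome itself, and MC1R receives melanocortin hormones at the surface of skin melanocytes. In the eye the RPE makes its melanin before birth, and these genes are shared with melanocytes of neural crest origin.

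Replicate 1 of both genotypes stood apart from the other 4 arrays on the first principal component, which held 68.9% of the variance, and the difference of each gene of the set is therefore also given without both replicate 1 arrays. RPE identity markers were present, with list means of 8.25 to 8.43 on albino and 8.39 to 8.59 on pigmented arrays over 12 tested of 15 listed genes. The mature RPE genes Rpe65 (3.07 to 3.49) and Lrat (2.55 to 3.36) were near the bottom of the scale on every array. Skeletal muscle markers were higher in albino pools without overlap in 17 of 17 tested genes, where 7.97% of all genes were, with list means of 8.79 to 9.52 on albino and 7.25 to 8.24 on pigmented arrays. Neural crest melanoblast and Schwann precursor markers (6 tested of 8 listed) were measurable in both genotypes, at list means of 7.16 to 7.27 in albino and 7.24 to 7.25 in pigmented pools, with the crest factor gene Sox10 at 7.47 to 7.97, so transcripts of the melanosome genes cannot be assigned to RPE alone. In such bulk tissue, fewer cells of a type and less RNA per cell cannot be told apart. Neural retina markers (5 tested of 10 listed) were lower in albino pools in 5 of 5, where 35.2% of all genes tested were. Their list means were 6.44 to 7.27 against 6.95 to 7.63. Lens markers (6 tested of 8 listed) were lower in 6 of 6, with list means of 7.16, 7.46 and 4.76 on albino replicates 1, 2 and 3 against 7.18 to 7.45, and Cryba1, a crystallin gene, read 3.31 on albino replicate 3 and 7.88 to 8.53 on the other 5 arrays. The part of muscle, melanoblast, RPE, neural retina or lens content in the differences below was not tested.

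RefSeq promoter windows (assembly GRCm38.p6, 250 bases before to 50 after the start of a transcript) were at hand for 5 of the 9 genes. They were searched on both strands for CATGTG and CACGTG, the E-box forms bound by the pigment cell factor MITF, and for TAATCC, the core bound by OTX2. CATGTG occurred in 4 of the 5 windows (Oca2, Slc24a5, Slc7a11 and Mc1r) and in 14.2% of the 32851 mouse promoter windows searched. CACGTG and TAATCC occurred in 0 of the 5, against 7.15% and 7.06% of all windows. Positions are counted from the first transcribed base as 1, with negative numbers before it. The match began at -186 in Oca2, at -74 in Slc7a11 and at -13 in Slc24a5, and Mc1r held matches at -62 and -51. Of the melanin enzyme genes, Tyr, Tyrp1 and Dct each held CATGTG, at its nearest at -21, -46 and -150. Tyrp1 and Dct also held TAATCC, at 5 and -119, while Tyr did not, and CACGTG was in none of these windows. The windows of the genes whose genotypes separated or whose array profiles differed most are shown, with each CATGTG (or its reverse CACATG) in capitals. The Gpnmb window held none of the 3 motifs. A match is a string of letters and not a measured binding site.
Oca2 promoter (chr7:56239509-56239808, plus strand): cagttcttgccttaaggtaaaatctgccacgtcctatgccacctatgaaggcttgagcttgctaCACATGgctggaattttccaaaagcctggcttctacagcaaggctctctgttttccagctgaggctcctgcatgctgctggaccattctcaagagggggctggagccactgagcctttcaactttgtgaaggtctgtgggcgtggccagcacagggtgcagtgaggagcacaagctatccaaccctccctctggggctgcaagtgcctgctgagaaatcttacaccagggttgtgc
Mc1r promoter (chr8:123406832-123407131, plus strand): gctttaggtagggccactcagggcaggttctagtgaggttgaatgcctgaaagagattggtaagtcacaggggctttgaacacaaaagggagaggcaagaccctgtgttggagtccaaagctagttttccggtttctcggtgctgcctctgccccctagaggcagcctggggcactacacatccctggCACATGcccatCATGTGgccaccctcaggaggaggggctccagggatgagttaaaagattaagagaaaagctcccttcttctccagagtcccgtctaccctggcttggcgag
Slc7a11 promoter (chr3:50443564-50443863, minus strand): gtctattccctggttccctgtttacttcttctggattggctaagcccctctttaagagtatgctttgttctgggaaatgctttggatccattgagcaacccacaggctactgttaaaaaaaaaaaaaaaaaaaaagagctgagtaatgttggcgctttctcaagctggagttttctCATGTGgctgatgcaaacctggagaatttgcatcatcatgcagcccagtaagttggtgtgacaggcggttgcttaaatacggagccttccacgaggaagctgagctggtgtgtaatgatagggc
Gpnmb promoter (chr6:49036268-49036567, plus strand): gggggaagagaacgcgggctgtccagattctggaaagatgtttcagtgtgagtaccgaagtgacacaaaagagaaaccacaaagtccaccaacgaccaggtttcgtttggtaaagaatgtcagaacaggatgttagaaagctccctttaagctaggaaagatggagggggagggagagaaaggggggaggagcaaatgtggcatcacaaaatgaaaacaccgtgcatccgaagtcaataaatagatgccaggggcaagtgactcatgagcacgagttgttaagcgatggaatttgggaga

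Among the matrix and membrane proteins, Mlana showed the largest difference on all 6 arrays by the probe sets of the highest mean. The second Gpnmb probe set gave a slightly larger one (-0.27 against -0.26), and none of the 3 genes passed the test. Without albino replicate 1 the difference of Gpnmb (-0.28) was larger than that of Mlana (-0.19). Pmel, which encodes the fibril protein, stood at 12.65, 12.41 and 12.48 in albino replicates 1, 2 and 3, against 12.80, 12.56 and 12.44 in pigmented replicates 1, 2 and 3. The genotypes overlapped, and replicate 1 was the highest array of each. The difference of -0.09 (SE 0.13, n = 3 each, limma adjusted p = 0.999) put the albino level at 94.2% of the pigmented level, with a 95% confidence interval of 76.2% to 116%. It was -0.06 without both replicate 1 arrays, and the sign turned (0.013) without pigmented replicate 1.

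Mlana read 9.70, 9.79 and 10.04 in albino, against 10.12, 10.13 and 10.06 in pigmented pools. The genotypes did not overlap, but the highest albino array and the lowest pigmented array, both replicate 3, lay 0.02 apart. The pigmented arrays were close together (10.10 ± 0.04, SD, n = 3) and the albino arrays spread more widely (9.84 ± 0.18, SD, n = 3). The difference was -0.26 (SE 0.11, 95% confidence interval -0.53 to 0.01, limma adjusted p = 0.999), and -0.18 without both replicate 1 arrays.

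Gpnmb, which encodes a glycoprotein of the same family as PMEL that macrophages also express, read 10.85, 10.28 and 10.38 in albino, against 10.93, 10.52 and 10.39 in pigmented pools. Replicate 1 was again the highest array of each genotype, and the genotypes overlapped. The difference was -0.11 (SE 0.20, limma adjusted p = 0.999), and it turned to 0.048 without pigmented replicate 1 and was near 0 (0.0017) without albino replicate 2. It was -0.12 without both replicate 1 arrays. The second Gpnmb probe set gave -0.27 (SE 0.13), with 7.01, 6.70 and 6.80 against 7.31, 7.02 and 7.00, so the 2 probe sets agreed in sign and not in size. Of 12 tested macrophage markers 2 were lower and 10 higher in albino pools, where 35.2% of all genes tested were lower. The 2 lower ones were Csf1r (-0.10) and C1qb (-0.04), each with 1 other tested probe set of the opposite sign. List means were 6.89 to 6.97 against 6.72 to 6.81. The part of macrophages in the Gpnmb values was not tested.

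Among the transporters, Oca2 was the gene whose genotypes separated most clearly and Slc7a11 the one with the largest but least certain difference on all 6 arrays. Oca2 read 9.31, 9.11 and 9.23 in albino, against 9.56, 9.46 and 9.36 in pigmented pools. Every albino array lay below every pigmented array, although the gap between the nearest arrays, albino replicate 1 and pigmented replicate 3, was small. The difference was -0.24 (SE 0.10, limma adjusted p = 0.999), an albino level of 84.5% of the pigmented level with a 95% confidence interval of 71.3% to 100%. Without both replicate 1 arrays it was -0.24, and leaving out single arrays gave -0.29 to -0.19.

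Slc45a2 read 8.26, 7.92 and 7.99 in albino, against 8.51, 8.19 and 8.02 in pigmented pools. The genotypes overlapped, since albino replicate 1 lay above pigmented replicates 2 and 3. The difference was -0.18 (SE 0.16, limma adjusted p = 0.999), or -0.15 without both replicate 1 arrays and -0.05 without pigmented replicate 1. The second Slc45a2 probe set gave -0.15 (SE 0.16).

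Slc7a11, the cystine and glutamate exchanger gene, read 5.88, 7.01 and 6.75 in albino, against 6.24, 7.46 and 7.28 in pigmented pools. Replicate 1 was the lowest array of each genotype, at -1.0 (albino) and -1.13 (pigmented) from the mean of replicates 2 and 3, so the genotypes overlapped widely. The difference of -0.45 had an SE of 0.41 (95% confidence interval -1.42 to 0.53, limma adjusted p = 0.999), and only 1.07% of the genes tested had an SE as large. Between arrays of the same replicate number the differences were closer together, at -0.36, -0.45 and -0.53, all lower in albino. Without both replicate 1 arrays the difference was -0.49 (SE 0.12, limma adjusted p = 0.357). Leaving out albino replicate 1 alone gave -0.11, pigmented replicate 2 alone -0.21 and pigmented replicate 1 alone -0.82. With the mean of 3 Y-linked genes as a covariate it was 0.01 (SE 0.44), in pools whose Y-linked means were 7.06 to 7.99 in albino and 2.32 to 7.39 in pigmented arrays. The second Slc7a11 probe set had a mean below 5 and gave -0.17 (4.19, 4.78 and 4.68 against 4.42, 5.03 and 4.71). Slc3a2, which encodes the heavy chain that carries SLC7A11 to the membrane, differed by -0.08, and its replicate 1 arrays were not low (10.16, 9.89 and 10.03 against 10.27, 10.02 and 10.04).

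Of the receptor genes Gpr143 was tested, and its difference was smaller than its SE. It read 7.74, 7.61 and 7.86 in albino, against 7.86, 7.77 and 7.77 in pigmented pools, and the genotypes overlapped. The difference was -0.06 (SE 0.10, 95% confidence interval -0.30 to 0.18, limma adjusted p = 0.999), so that the interval ran from 81.1% to 113% of the pigmented level. Without both replicate 1 arrays it was -0.03. Gpr143 is X-linked, and the difference was -0.11 (SE 0.13) with the Y-linked covariate, in pools that differed in Y-linked and Xist levels. Xist read 4.47 on albino replicate 3 and 10.95 to 12.15 on the other 5 arrays.

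Mc1r stayed near the lower limit of measurement in both genotypes. Its brighter probe set read 4.86, 4.52 and 4.90 in albino, against 5.05, 4.95 and 5.01 in pigmented pools, a difference of -0.24 (-0.27 without both replicate 1 arrays) that was not tested because the mean was below 5. The genotypes did not overlap. Its other probe set read 3.14, 4.20 and 4.29 against 3.74, 4.37 and 4.35, and there they did overlap.

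**Figure D1:**
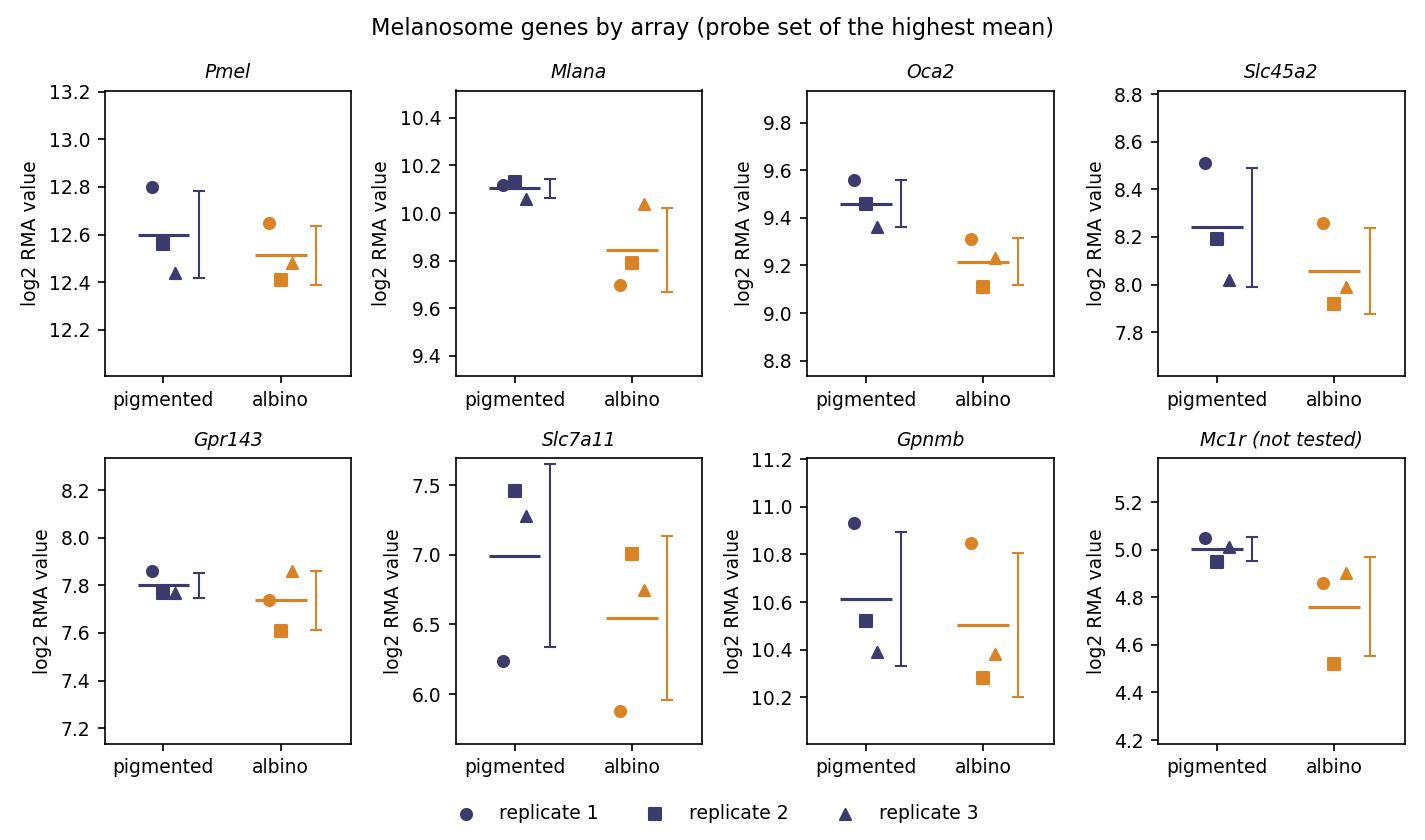
Each panel plots the log2 RMA value of 1 gene on the 3 pigmented and 3 albino arrays, with the mean as a line, the SD as a bar beside it and the replicate number as the symbol; the vertical axes differ between panels. Oca2, Mlana and the untested Mc1r do not overlap between the genotypes, and replicate 1 is the highest array of both genotypes in Pmel, Slc45a2, Gpnmb and Oca2 and the lowest in Slc7a11.

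As a group, all 7 tested genes had a negative difference, from -0.45 to -0.06 with a median of -0.18, where 35.2% of all genes tested lay lower in albino pools and the median over all genes was 0.04. Of the tested probe sets of these genes 9 of 9 were lower, against 35.6% of all probe sets, and the 3 untested ones were lower too. The genes share tissue and arrays, so these signs are not independent of each other, and the set was chosen with earlier results known. Of the 7 genes, 0 passed an adjusted p of 0.05 in limma, as did 0% of the 12098 genes (smallest adjusted p over all probe sets 0.500). At an unadjusted p under 0.05 the count was also 0 of 7, against 4.79% of genes in either direction and 1.31% lower in albino. With the replicate number as a block it was 3 of 7, against 16.9% of genes in either direction and 5.54% lower in albino. Genotypes without overlap and albino lower occurred in 2 of the 7 genes, Oca2 and Mlana, against 3.38% of genes. In 5 of the 7, each albino array lay below the pigmented array of its own number, against 13% of genes. Pmel and Gpr143 were the exceptions, with replicate 3 at 0.04 and 0.09. On replicate 3 the differences of Mlana, Slc45a2 and Gpnmb were also close to 0, at -0.02, -0.03 and -0.01. The second Slc45a2 probe set was at 0.02 there. Oca2 and Slc7a11 were at -0.13 and -0.53. Only 0.355% of genes had a difference as low as that of Slc7a11, 2.79% one as low as that of Mlana and 3.33% one as low as that of Oca2. For Slc45a2, Gpnmb, Pmel and Gpr143 the shares were 6.04%, 13.0%, 16.3% and 20.6%. These shares take no account of the SE, which for Slc7a11 was among the largest.

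The background moved with the scaling of the arrays. After cyclic loess 48.2% of genes lay lower and the median of the 7 genes was -0.24, and after centring each array on its median 33% lay lower and the median was -0.18. All 7 were lower under both scalings. Without both replicate 1 arrays all 7 were lower as well, against 34.9% of genes, and with the Y-linked covariate 6 were, against 56.2% of genes.

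**Figure D2:**
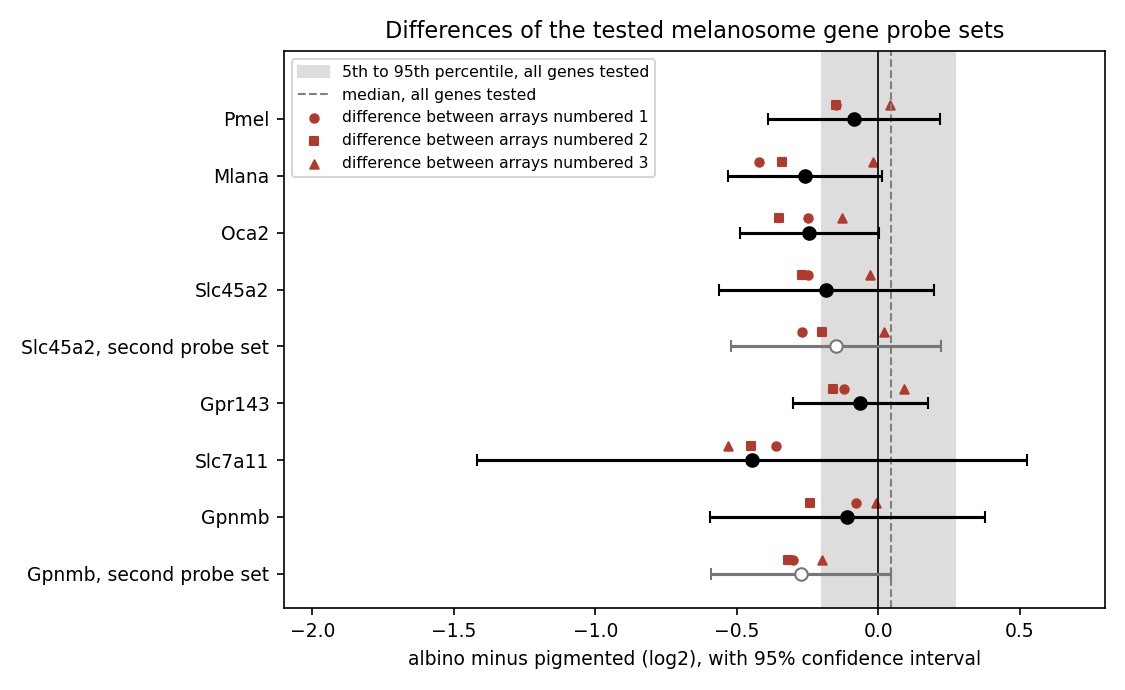
The plot shows the albino minus pigmented difference (log2) of the 9 tested probe sets with its 95% confidence interval (filled for the representative probe set, open for a second one), the differences between arrays of the same number in red, and the 5th to 95th percentile of all genes tested (-0.20 to 0.27) in grey. Every interval includes 0, that of Oca2 only just, and the interval of Slc7a11 is the widest although its 3 red symbols lie between -0.53 and -0.36.

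The 7 genes did not share 1 profile over the arrays. Pmel, Slc45a2 and Gpnmb ran together, with Pearson r of 0.987 between Pmel and Slc45a2, 0.965 between Pmel and Gpnmb and 0.948 between Slc45a2 and Gpnmb over the 6 arrays. All 3 were higher on replicate 1, by 0.21 to 0.52 in albino and by 0.30 to 0.48 in pigmented pools over the mean of replicates 2 and 3, where the median gene was higher by 0.18 in both. Oca2 followed them less closely (r = 0.767 with Pmel) and was near the median gene on replicate 1 (0.14 and 0.15). With the genotype means taken out, Oca2 did follow them, with r of 0.946 with Pmel, 0.938 with Slc45a2 and 0.922 with Gpnmb. Slc7a11 ran against them, with r = -0.769 with Gpnmb, and 0.422% of genes in albino and 0.587% in pigmented pools were as low on replicate 1. Mlana followed neither course (r = 0.166 with Pmel and 0.489 with Slc7a11). These correlations describe 6 arrays that share the genotype and the replicate structure, and many other genes had the same profile. An r above 0.9 was reached with Gpnmb by 15.8% of the genes tested, with Pmel by 9.08%, with Slc45a2 by 6.70%, with Slc7a11 by 1.83%, with Oca2 by 1.44%, with Mlana by 0.546% and with Gpr143 by 0.298%.

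**Figure D3:**
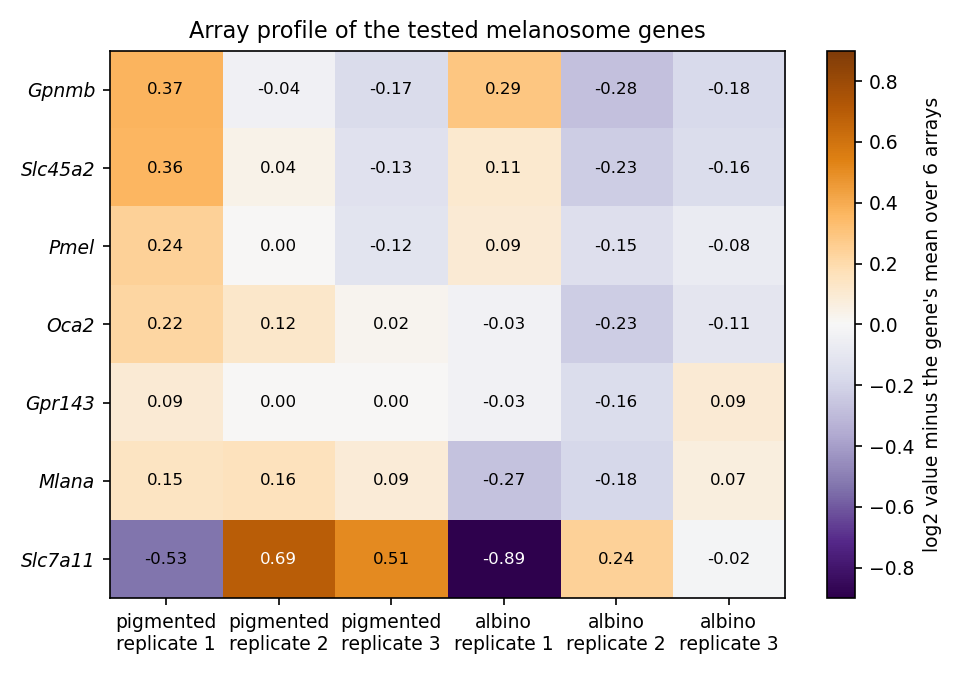
Each cell gives the log2 value of a gene on an array minus the mean of that gene over the 6 arrays, from purple (lower) to orange (higher). Gpnmb, Slc45a2 and Pmel are highest on pigmented replicate 1 (0.37, 0.36 and 0.24), Slc7a11 is lowest on the replicate 1 arrays (-0.53 and -0.89), and Mlana is lowest on albino replicate 1 (-0.27).

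The genes most like each of the 7 over the 6 arrays were found by Pearson r. Tyrp1, a melanosomal enzyme of the tyrosinase family, was among the 3 closest to Slc45a2 (r = 0.996), with Lrch4 (0.997) and Jpt2 (0.996). Slc2a8, a sugar transporter gene, was closest to Pmel (0.998), followed by St3gal6 (0.997) and Zbtb39 (0.995). Nadk2 (0.998), St6gal1 (0.997) and Zswim5 (0.997) were closest to Gpnmb. Guca1b, a guanylate cyclase activator gene known from photoreceptors, was closest to Oca2 (0.999), before Crocc (0.988) and the nuclear receptor gene Hnf4a (0.987). Ptgds, a prostaglandin D synthase gene, was closest to Mlana (0.989), before Gm8096 (0.986) and Shmt1 (0.984). Gca (0.997), Ccdc13 (0.989) and the Wnt antagonist gene Dkk2 (0.989) were closest to Slc7a11. Zbtb49 (0.982), Atxn2l (0.981) and Bcl6b (0.976) were closest to Gpr143. Mitf, the master transcription factor gene of pigment cells, ran with Mlana (r = 0.954) and not with Pmel (r = 0.087). Mitf read only 10.07 to 10.21 over the 6 arrays, so its r values rest on a narrow range. The genotype difference of its second tested probe set had the opposite sign. Tyr ran with Slc45a2 (0.942), Oca2 (0.935) and Pmel (0.912).

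Other genes of the pigment pathway lay on both sides of 0. Of 52 tested, 28 were lower and 24 higher in albino pools, where 35.2% of all genes tested were lower. Their median was -0.02 against 0.04 over all genes, and 0 passed an adjusted p of 0.05. Without both replicate 1 arrays 27 of the 52 were lower, against 34.9% of genes. The 3 melanin enzyme genes were all lower, Tyrp1 by a difference of -0.24, Tyr of -0.19 and Dct, the dopachrome tautomerase gene, of -0.08. All 3 overlapped between the genotypes, with SEs of 0.18, 0.13 and 0.11 (limma adjusted p = 0.999 for each). Between the replicate 3 arrays they differed by -0.01, 0.02 and 0.08. Their median of -0.19 stood beside -0.18 for the 7 genes. Of the genes that process or sort PMEL, 3 of 3 tested were lower. Without both replicate 1 arrays 2 of the 3 were, with Apoe at 0.06. Bace2, which encodes a protease that cuts PMEL, had the largest difference of that list, at -0.31 (8.14, 8.07 and 8.31 against 8.60, 8.57 and 8.28, limma adjusted p = 0.999), and Apoe the smallest (-0.01). Pigmented replicate 3 was the low array of its genotype and overlapped the albino arrays.

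The remaining lists were mixed, in a series where 35.2% of all genes tested lay lower in albino pools. Other ion, metal and thiol transport genes of the melanosome had 4 of 6 lower, from Atp7a, the copper pump gene (-0.09), to Tpcn2, a cation channel gene (0.11), and the second tested probe set of Atp7a had the opposite sign. Genes around the melanocortin receptor and GPR143 had 1 of 5 lower and 4 higher. They ran from Pomc, the melanocortin precursor gene (-0.08), to Mgrn1, a ubiquitin ligase gene (0.12), and the second tested probe set of Pomc had the opposite sign. Asip, the agouti antagonist gene, was not named in the annotation used. The trafficking machinery had 10 of 23 lower and a median of 0.03, between Mlph, the melanophilin gene (-0.21), and Rabggta, which encodes a subunit of the enzyme that lipidates Rab proteins (0.26). Of the transcription factor genes 3 of 5 were lower, Mitf at -0.10, with its second probe set at the opposite sign, Otx2 at -0.09 and Tfec at 0.06. ATF4 and NRF2 are known activators of Slc7a11 transcription, and other genes of their responses (7 tested of 9 listed) had 4 of 7 lower. They lay between Nqo1 (-0.30) and Hmox1 (0.21). Over the 6 arrays Slc7a11 ran against Asns (r = -0.908) and Ddit3 (r = -0.975), and r is not given for the others of that list. The part of ATF4 or NRF2 in the Slc7a11 values was not tested.

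**Figure D4:**
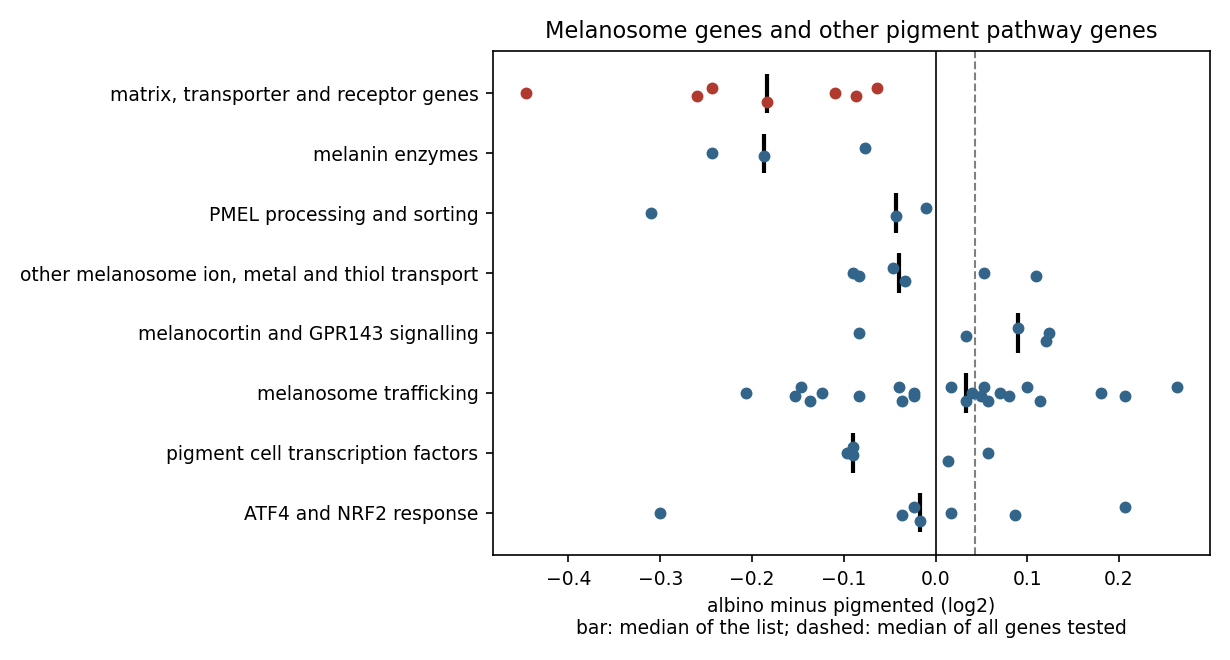
Points are the albino minus pigmented differences (log2) of single tested genes by list, bars the median of each list and the dashed line the median of all genes tested (0.04). The matrix, transporter and receptor genes and the melanin enzymes lie wholly below 0 (medians -0.18 and -0.19), and the trafficking genes spread on both sides (-0.21 to 0.26).

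RPE identity markers were lower in 10 of 12 tested genes, with a median of -0.14, in the same albino pools. Of all genes tested 35.2% were lower. In 4 of the 12 RPE markers the albino arrays were lower without overlap, against 3.38% of genes. The melanoblast and Schwann precursor markers were lower in 4 of 6, with a median of -0.08. Within that list Ednrb, an endothelin receptor gene, differed by -0.29, Pax3 by -0.23 (SE 0.32), Sox10 by -0.09 and Kit by -0.07. Erbb3, a receptor gene, differed by 0.35 and Foxd3 by 0.12. The neural retina markers had a median of -0.50 and the lens markers one of -0.84. Without both replicate 1 arrays, 9 of the 12 RPE, 4 of the 6 melanoblast, 5 of the 5 neural retina and 6 of the 6 lens markers were lower. The share of all genes tested that were lower was then 34.9%. Without albino replicate 3 the lens markers lay on both sides of 0, with 3 of 6 lower, while 5 of 5 neural retina markers and all 7 genes of the set were still lower. Both of these checks of the marker lists were chosen after seeing the data.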

How the data were processed

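RNA was measured on 6 arrays, 3 per genotype, grouped by their titles. The authors deposited log2 RMA expression values, made with Affymetrix Expression Console 1.1 and RMA per the submitters' processing notes. RMA subtracts background, makes the distributions of arrays alike and summarises the probes of a probe set, so a change shared by all transcripts is not visible. Array medians were 5.19 to 5.22. Genome build and a joint normalization run are not given in the sources used here, and the number of arrays limits the precision.

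Names came from the platform annotation. Of 45101 probe sets, 34945 named 1 gene, 932 several, 9160 none, and 64 were controls. By Entrez ID 34754 matched RefSeq's GRCm38.p6 table, with 0 symbols changed. Controls and probe sets with a mean below 5 were left out, which kept 23591 probe sets.

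Albino minus pigmented was fitted with limma 3.58.1 in R 4.3.3 (lmFit, eBayes, two-sided) without a replicate block, and p-values were adjusted by Benjamini-Hochberg over all probe sets kept. The fit was tested on simulated data. Deviations from genotype means correlated at 0.863, 0.687 and 0.448 between same-numbered arrays, all above the limit of 0.1 set for pairing, which the labels do not state. The fit with a replicate block was an alternative.

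The genes and lists were chosen with earlier results of these data known. Every gene of the set was named with all its probe sets, as were Tyr, Tyrp1, Dct, Mitf, Tfec and Otx2, the largest rise and fall of each pathway list, and for each tested gene the 3 genes with the highest r. Other genes were named after their values were seen. Alternatives were other scalings, filters, probe set choices, array weights, covariates and left-out arrays.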

Additional observations from a re-analysis of the deposited data

How the results depend on the processing

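Each of the 7 tested genes was recomputed under 17 alternatives, and in all of them 0 of the genes and 0 probe sets passed an adjusted p of 0.05. The sign was negative in 17 of 17 for Mlana (-0.36 to -0.17), Oca2 (-0.29 to -0.19) and Slc45a2 (-0.29 to -0.05). Gpr143 was negative in 16 and exactly 0 without albino replicate 2. Leaving out single arrays gave -0.17 to 0.013 for Pmel, -0.28 to 0.048 for Gpnmb and -0.82 to -0.11 for Slc7a11. Slc7a11 turned to 0.013 with the Y-linked covariate, and the cause was not tested. The number of genes lower in albino was 5 without albino replicate 2 and 5 without pigmented replicate 1, 6 with the Y-linked covariate, 8 of 8 without the filter on the mean, which adds Mc1r, and 7 otherwise.

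With the replicate block the differences were the same by construction and their errors smaller. Slc7a11 then had an SE of 0.062 (limma adjusted p = 0.192), Oca2 one of 0.067 (adjusted p = 0.213) and Mlana one of 0.094 (adjusted p = 0.259). The block changed no call. Smaller errors did not require pairing within replicates 2 and 3. A block for replicate 1 against the others also gave them in each of the 7 genes. The SE was then 0.061 for Oca2 (limma adjusted p = 0.130), 0.090 for Mlana (0.187) and 0.091 for Slc7a11 (0.110). In that fit 4 of the 7 had an unadjusted p under 0.05, and 0 passed an adjusted p of 0.05. For Slc7a11 and Gpr143 the replicate block gave the smaller SE. The pairing of replicates 2 and 3 was itself uncertain. For albino replicate 2, r was 0.693 with pigmented replicate 3 and 0.687 with its own number. For albino replicate 3, r was 0.546 with pigmented replicate 2 and 0.448 with its own number.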
